A study of Mus musculus with 9 samples.

Results

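The purinergic P2X and P2Y receptors were followed in the mouse trigeminal ganglion (TG) as 10 genes, 6 of them P2X (P2rx2, P2rx3, P2rx4, P2rx5, P2rx6 and P2rx7) and 4 of them P2Y (P2ry1, P2ry2, P2ry12 and P2ry14). They were chosen by gene name, by adding up the mRNA values of all transcripts of each gene, and they are 10 of the 21809 gene sums of the mRNA data. The unit is FPKM, the fragments of a library per kilobase of a transcript's length, corrected for sequencing depth. All 10 averaged 0.1 FPKM or more over the libraries and were among the 16096 gene sums tested. The 10 genes have 57 listed transcripts, of which 44 passed the same filter.

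RNA was sequenced from the TG of wild-type (WT) male C57BL/6 mice aged 8 weeks after an injection into the superior space of 1 temporomandibular joint (TMJ). The saline group received 10 µl of saline and carries the label Day 3. The CFA3D and CFA6D groups received 10 µl of complete Freund's adjuvant (CFA, an oil emulsion of killed mycobacteria used to inflame a joint) at 5 mg/ml, with tissue from day 3 and day 6. Each group has 3 libraries, and each library pooled unilateral TG punches of 3 mice. Errors are therefore between 3 pools per group, not between single mice. No saline library is labelled day 6, so in the comparison of CFA6D with saline the treatment and the day cannot be told apart.

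P2X receptors are cation channels that open when extracellular ATP binds, and P2Y receptors are G protein-coupled receptors for ATP, ADP, UTP or UDP sugars. The TG holds the cell bodies of the sensory neurons of the face and jaw joint, with the satellite glia, Schwann cells and macrophages around them. ATP that leaves stressed or injured cells is a classical activator of nociceptive endings, and P2X3 is the subunit best known for this in small sensory neurons, while P2X7 and P2Y12 are known mainly from glia and immune cells.

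At the depth of these libraries a single read pair added 0.0237 to 0.0327 FPKM to a 1-kb transcript. Markers of sensory ganglia were high, with a pan-neuronal sum of 8 genes (Tubb3 the highest) between 1561 and 2311 FPKM and a Schwann cell sum of 7 genes between 2384 and 3429 FPKM. Some libraries also held RNA of other tissues. The sum of 7 pituitary genes, led by growth hormone (Gh), was 10661 FPKM in saline 3, 1116 in CFA6D 4 and 409 in CFA6D 5, against 8.89 to 99.8 in the others. The sum of 10 other leukocyte genes, led by the neutrophil gene S100a9, was 2312 FPKM in CFA6D 6 against 23.5 to 122 elsewhere. Saline 2 and CFA6D 6 held the most skeletal muscle RNA (sums of 177 and 81.9 FPKM over 8 genes), and saline 2 the most adipocyte RNA (139.5 over 6 genes). Calca, Nefh, Rgs5, Apod, Acta1 and Cidea were the highest genes of the peptidergic, large-diameter neuron, endothelial, fibroblast, muscle and adipocyte lists, and no gene of the 14 marker lists was at 0 in all 9 libraries.

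The transcripts of P2rx7 differ in their ends, and the sequences that separate them come first because its results turn on them. The annotation (GENCODE release 21, GRCm38) places P2rx7 on chromosome 5 from 122643911 to 122691432 on the plus strand. Transcripts P2rx7-203, P2rx7-201 and P2rx7-204 share all coding bases up to their last exon and then part. In the 3 sequences below, lower case is the last 30 coding bases before the final splice and capitals are the first coding bases of each last exon.
P2rx7-203: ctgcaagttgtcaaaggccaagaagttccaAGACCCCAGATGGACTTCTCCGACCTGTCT
P2rx7-201: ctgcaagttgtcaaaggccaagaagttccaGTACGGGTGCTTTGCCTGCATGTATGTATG
P2rx7-204: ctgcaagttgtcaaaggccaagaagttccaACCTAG
The last exon of P2rx7-203 (122680807 to 122684289) holds 498 coding bases and gives the long intracellular tail of the full-length receptor, with 595 amino acids in all. The last exon of P2rx7-201 (122691253 to 122691432) holds 39 coding bases and that of P2rx7-204 (122683175 to 122684297) holds 6, stop codon included, which leaves 442 and 431 amino acids. P2rx7-208 instead differs at the other end, with a first exon at 122650424 in place of 122643911. The first 30 coding bases of each are shown.
P2rx7-203: atgccggcttgctgcagctggaacgatgtc
P2rx7-208: atgctgcccgtgagccacttatgcagccat
P2rx7-205 is annotated as a retained intron of a single exon of 2103 bases (122682182 to 122684284). It lies wholly inside the last exon of P2rx7-203, beyond its coding part, so reads from this stretch fit both. The last exon of P2rx7-204 begins within the same stretch, at 122683175, and runs past its end. Reads from there on can fit P2rx7-204 as well. The noncoding P2rx7-206, of 2 exons, also ends within the stretch, at 122683524. It was above 0 only in CFA3D 1 (0.0879 FPKM) and CFA3D 3 (0.230). The division of all these reads rests on the authors' program.

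The RefSeq promoter windows (GRCm38.p6, 250 bases before to 50 after a start) held 12 windows for 7 of the 10 receptors, and P2rx2, P2rx3 and P2rx5 had none. Those of P2rx7 are shown because the transcripts from its 2 starts differed in level. Capitals mark matches on either strand to 5 short motifs, GGGCGG (the GC box), GAGGAA (a core of ETS-type sites), TATAAA (the TATA box), TGTGGT (a RUNX core) and CACGTG (an E-box). The first window is chr5:122643677-122643976 and the second chr5:122650133-122650432, both on the plus strand.
P2rx7 first start: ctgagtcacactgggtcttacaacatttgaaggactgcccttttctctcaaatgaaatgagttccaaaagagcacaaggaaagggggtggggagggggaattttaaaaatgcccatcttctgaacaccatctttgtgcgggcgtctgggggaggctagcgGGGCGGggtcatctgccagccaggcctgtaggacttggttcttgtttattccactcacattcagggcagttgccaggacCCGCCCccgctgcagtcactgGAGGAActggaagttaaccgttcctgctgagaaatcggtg
P2rx7 second start: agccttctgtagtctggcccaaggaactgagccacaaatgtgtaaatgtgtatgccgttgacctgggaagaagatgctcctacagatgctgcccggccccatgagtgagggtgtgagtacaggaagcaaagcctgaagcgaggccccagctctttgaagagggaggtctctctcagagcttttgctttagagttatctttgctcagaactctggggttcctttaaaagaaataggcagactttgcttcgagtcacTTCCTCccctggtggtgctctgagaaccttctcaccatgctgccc
Transcripts from the first start (P2rx7-201, P2rx7-202, P2rx7-203 and P2rx7-204) summed to 5.99 FPKM or more in every library. The transcript of the second start (P2rx7-208) stood between 0.0633 and 0.503 FPKM, below the first in all 9 libraries. The first window holds GGGCGG and GAGGAA, and the second GAGGAA alone. Of all 32851 windows, 35.7% hold GGGCGG, 28.3% GAGGAA, 16.8% TGTGGT, 13.6% TATAAA and 7.15% CACGTG, so each match is a description of the letters and not of a site.

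The receptors covered a wide range of levels, and P2rx3 stood at the top in every library. The levels below are FPKM, which are per length, summed over coding and noncoding transcripts, so the order of genes holds for these sums. P2rx3 (mean of 9 libraries 36.3) was followed by P2ry1 (17.0), P2rx7 (11.5), P2rx4 (10.5), P2ry2 (7.63), P2rx6 (6.20), P2rx5 (3.43), P2ry14 (3.03), P2ry12 (1.70) and P2rx2 (0.792). P2rx3 made up 33.7% to 40.0% of the sum of the 10 receptors and 49.5% to 57.1% of the P2X sum, and P2ry1 made up 52.0% to 67.6% of the P2Y sum. P2rx3 and P2ry1 were the only neighbours in this order whose ranges over the 9 libraries did not overlap. P2ry1 was above P2rx7, P2ry2 above P2rx6, P2rx6 above P2rx5 and P2ry14 above P2ry12 in all 9 libraries, although their ranges overlapped. The lowest ratio of P2ry2 to P2rx6 was 1.01, and the retained intron P2ry2-205, which is noncoding, held 22.0% of the P2ry2 sum. Their order thus holds for the gene sums but not for coding transcripts alone in every library. P2rx7 was above P2rx4 in 4 of 9 libraries, so their order is not fixed by these data. P2rx4 was above P2ry2 in 8, P2rx5 above P2ry14 in 7 and P2ry12 above P2rx2 in 8 of 9.

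**Figure D1:**
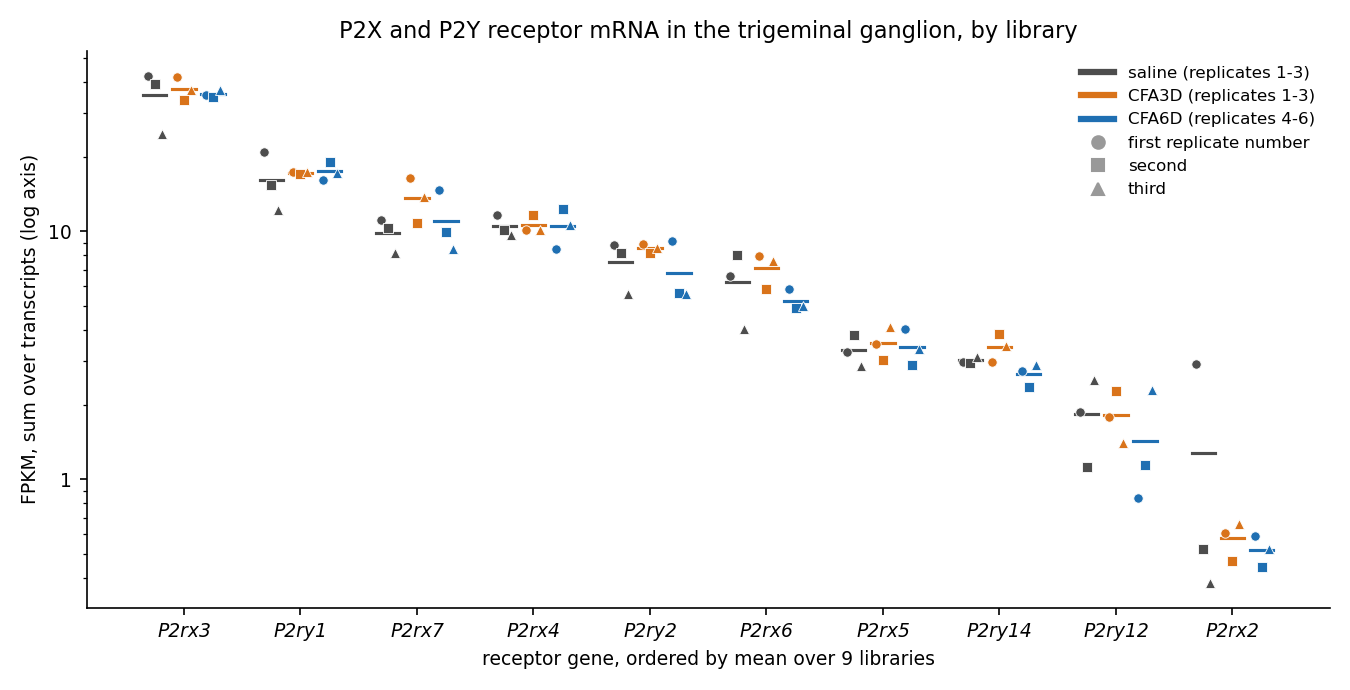
FPKM of each receptor gene (sum over transcripts, log axis) in the 9 libraries, with 1 point per library, a short line at the mean of each group, and marker shapes for the replicate number within a group. P2rx3 lies between 24.6 and 42.3 FPKM, above all others, and P2rx2 lies between 0.383 and 0.659 FPKM in all libraries but saline 1 (2.92).

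None of the 10 receptors passed the test between CFA3D and saline or between CFA6D and saline. A gene was called when its unadjusted p in limma was under 0.05 and its log2 difference of log2(FPKM + 0.1) was at least 1 in size. Of the 16096 gene sums tested, 0.342% were called on CFA3D and 0.584% on CFA6D, so 0 of 10 is near the background. At an unadjusted p under 0.05 alone the count was again 0 of 10 on both days, against 4.45% and 11.1% of all gene sums. After Benjamini-Hochberg adjustment no gene sum in the whole table passed in limma on either day (0%), while 717 gene sums reached an unadjusted p under 0.05 on CFA3D and 1781 did on CFA6D. CFA3D and saline did not overlap for 0 of the 10, against 9.13% of all gene sums. The smallest adjusted p of a receptor was 0.997 on CFA3D and 0.675 on CFA6D. The median log2 difference of the 10 receptors was 0.12 on CFA3D, beside 0.05 for all gene sums, and -0.09 on CFA6D, beside 0.03. With 3 pools against 3, an exact permutation test of a single value cannot go below 0.1, so no permutation p is given.

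**Figure D2:**
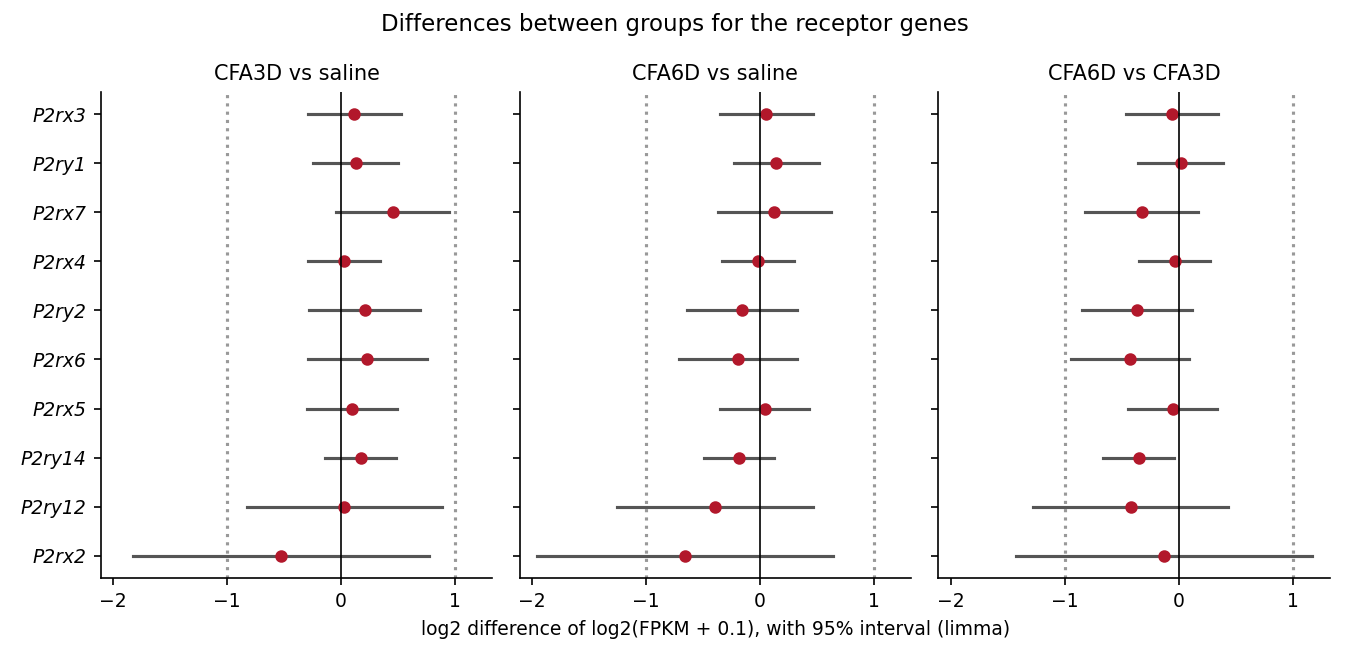
Log2 difference of each receptor gene with its 95% interval (limma) for CFA3D against saline, CFA6D against saline and CFA6D against CFA3D, with dotted lines at a difference of 1 either way. The intervals take in 0 in every case but P2ry14 between CFA6D and CFA3D (-0.66 to -0.04), and those of P2rx2 and P2ry12 are the widest.

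Among the P2X channels, P2rx3 (chromosome 2, 84998583 to 85037462, minus strand) encodes the subunit of the ATP-gated channel of nociceptors. It stood at 42.3, 39.4 and 24.6 FPKM in saline 1 to 3, at 41.8, 33.8 and 37.1 in CFA3D 1 to 3, and at 35.6, 34.7 and 37.3 in CFA6D 4 to 6. Saline 3 was far below the other 8 libraries, whose values ran together, and the groups overlapped. The group means were 35.5 ± 9.48, 37.5 ± 4.04 and 35.9 ± 1.32 FPKM (SD, n = 3 each). The log2 difference was 0.12 on CFA3D (SE 0.18, 95% interval -0.29 to 0.52, limma adjusted p = 0.997) and 0.06 on CFA6D (interval -0.35 to 0.46, adjusted p = 0.934), which allows anything from 0.818 to 1.44 times the saline level on CFA3D and from 0.784 to 1.38 times on CFA6D. Without saline 3 both differences turned negative, to -0.13 and -0.19. In bulk tissue, fewer cells of a type and less RNA per cell cannot be told apart.

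Saline 3 was also the library with the lowest sum of the 8 pan-neuronal markers (1561 FPKM, against 1786 to 2311 in the others) and of the 8 non-peptidergic nociceptor markers (69.8, against 83.4 to 117), the class of neurons in which P2rx3 is known to be high. The part of these sums in the level of P2rx3 was not tested. As a share of the pan-neuronal sum, P2rx3 was 2.12%, 2.21% and 1.58% in saline, 2.08%, 1.78% and 1.70% in CFA3D, and 1.54%, 1.78% and 1.85% in CFA6D, with overlap between the groups. Relative to the non-peptidergic sum it was 46.8%, 47.2% and 35.3% in saline, 43.0%, 36.3% and 36.3% in CFA3D, and 30.5%, 30.8% and 38.4% in CFA6D, again with overlap. Of the 8 non-peptidergic markers (Scn11a the highest), 3 were higher at an unadjusted p under 0.05 on CFA3D and 6 on CFA6D, with 0 lower and 0 called at the fold used here, beside 4.45% and 11.1% of all gene sums at that p in either direction. Of the 7 peptidergic markers 2 were higher on each day, and of the 8 pan-neuronal markers 0 on CFA3D and 3 on CFA6D. P2rx3-201 held 92.2% of the P2rx3 sum. The gene's first bases overlap Ssrp1 on the opposite strand by 229 bases, and whether counting used strand is not stated for these values. Of the listed transcripts only P2rx3-202, with 0.121% of the P2rx3 sum, reaches that overlap.

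P2rx2 (chromosome 5, 110339812 to 110343212, minus strand) encodes the subunit that joins P2X3 in mixed channels, and it was the lowest of the 10. It stood at 2.92, 0.526 and 0.383 FPKM in saline, at 0.610, 0.470 and 0.659 in CFA3D, and at 0.591, 0.443 and 0.525 in CFA6D. Saline 1 alone was high and the other 8 libraries lay within 0.383 to 0.659, so the saline mean of 1.28 ± 1.43 FPKM (SD, n = 3) describes no library of that group. The gene rested on about 32 to 180 read pairs per library. The fitted differences were -0.52 on CFA3D (interval -1.82 to 0.77, limma adjusted p = 0.997) and -0.65 on CFA6D (interval -1.95 to 0.64, adjusted p = 0.717). Without saline 1 they became 0.29 and 0.17. The high value of saline 1 was spread over P2rx2-203 (1.53 FPKM), P2rx2-201 (0.56), P2rx2-202 (0.51) and P2rx2-204 (0.32).

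P2rx4 (chromosome 5, 122707544 to 122729738, plus strand) encodes a channel known from macrophages, microglia and many neurons, and lies 16111 bases beyond the end of P2rx7. It stood at 11.7, 10.2 and 9.65 FPKM in saline, at 10.1, 11.7 and 10.2 in CFA3D, and at 8.47, 12.3 and 10.6 in CFA6D. The CFA6D libraries held both the lowest and the highest value, and the groups overlapped. Its coefficient of variation over all 9 libraries was 11.2%, the lowest of the receptors. The differences were 0.02 on CFA3D (interval -0.29 to 0.34, limma adjusted p = 0.997) and -0.01 on CFA6D (interval -0.33 to 0.30, adjusted p = 0.976). The gene sum hid a variable split between its coding transcripts. P2rx4-202 ran from 1.09 FPKM in CFA6D 4 to 7.34 in CFA6D 5, so neighbouring libraries of 1 group differed most.

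P2rx5 (chromosome 11, 73160421 to 73172685, plus strand) encodes a channel found in larger sensory neurons and in muscle. It stood at 3.27, 3.82 and 2.85 FPKM in saline, at 3.50, 3.03 and 4.13 in CFA3D, and at 4.02, 2.88 and 3.36 in CFA6D, with all groups overlapping. The differences were 0.10 (interval -0.30 to 0.49, limma adjusted p = 0.997) and 0.04 (interval -0.35 to 0.43, adjusted p = 0.948). All of its signal lay in P2rx5-201, and the other 2 listed transcripts were at 0 throughout.

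P2rx6 (chromosome 16, 17561885 to 17577800, plus strand) encodes a subunit that works mainly in mixed channels. It stood at 6.62, 8.07 and 4.04 FPKM in saline, at 7.93, 5.85 and 7.58 in CFA3D, and at 5.83, 4.90 and 5.01 in CFA6D. Saline held both the lowest and the highest library, and every CFA6D library was below every CFA3D library. The differences were 0.23 on CFA3D (interval -0.29 to 0.75, limma adjusted p = 0.997), -0.19 on CFA6D (interval -0.71 to 0.32, adjusted p = 0.794) and -0.42 between CFA6D and CFA3D (interval -0.94 to 0.09, adjusted p = 0.697). Without saline 3 the CFA6D difference was -0.47, with an unadjusted p of 0.0189 in limma, and without saline 2 it was 0.016. P2rx6-201 held 80.6% of the sum, and P2rx6-203 overlaps Slc7a4 on the opposite strand.

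P2rx7 encodes a channel that needs high ATP and is known for cytokine release from macrophages and glia. It stood at 11.2, 10.4 and 8.18 FPKM in saline, at 16.4, 10.8 and 13.8 in CFA3D, and at 14.7, 9.90 and 8.47 in CFA6D. CFA3D 1 and 3 and CFA6D 4 were the highest, CFA3D 2 was below saline 1, and the groups overlapped. The difference was 0.45 on CFA3D (SE 0.22, interval -0.04 to 0.95, limma adjusted p = 0.997, unadjusted p = 0.0688) and 0.13 on CFA6D (interval -0.37 to 0.62, adjusted p = 0.864). The CFA3D value was the highest of the 10 receptors in that comparison, and its interval reaches from 0.971 to 1.93 times the saline level.

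The higher P2rx7 sums of CFA3D 1 and 3 lay in P2rx7-205, the single-exon transcript inside the last exon of P2rx7-203. P2rx7-205 stood at 0.0750, 0.0708 and 0.0499 FPKM in saline, at 5.23, 0.0739 and 4.16 in CFA3D, and at 0.594, 0.0644 and 0.0545 in CFA6D. It was thus about 454 and 329 read pairs in CFA3D 1 and 3, 51 in CFA6D 4 and 4 to 6 in the other 6 libraries. The groups overlapped because CFA3D 2 was at the saline level. Between CFA3D and saline P2rx7-205 was 1 of the 44 receptor transcripts called, with a log2 difference of 3.26 (SE 1.21, limma unadjusted p = 0.0259, adjusted p = 0.989). Of all 66562 transcripts tested, 2.19% were called in that comparison, so 1 of 44 is near the background. Its p no longer passed when any 1 saline library was left out, without CFA3D 1 (2.38) or without CFA3D 3 (2.55), and without CFA3D 2 the difference was 4.85.

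Without P2rx7-205, the P2rx7 sum was 11.1, 10.3 and 8.13 FPKM in saline, 11.1, 10.7 and 9.61 in CFA3D, and 14.1, 9.84 and 8.42 in CFA6D. The values of CFA3D and saline then ran together. With only the coding transcripts the CFA3D difference was 0.11 in place of 0.45. Length matters here, since P2rx7-205 is shorter than P2rx7-203 and the same reads give it a higher FPKM. When FPKM was multiplied by length before adding, P2rx7 still stood at 34.4, 27.3 and 22.0 FPKM kb in saline, 43.9, 29.4 and 35.4 in CFA3D, and 28.9, 25.9 and 25.0 in CFA6D, and the CFA3D difference was 0.38. On that scale CFA3D 1 and 3 stayed above all saline libraries and CFA3D 2 did not.

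The full-length transcript P2rx7-203 was the highest form on average, at 5.99, 4.33 and 3.19 FPKM in saline, 5.33, 4.71 and 4.32 in CFA3D, and 2.36, 4.08 and 3.76 in CFA6D. Every CFA6D library was below every CFA3D library, while both overlapped saline. The 2 forms with shortened ends (P2rx7-201 and P2rx7-204, whose sequences part after the shared lower-case stretch above) together stood at 1.42, 1.54 and 2.31 FPKM in saline, at 2.78, 1.39 and 1.61 in CFA3D, and at 7.23, 1.16 and 2.53 in CFA6D. CFA6D 4 was apart, with 49.2% of its P2rx7 sum in the shortened forms and 16.1% in the full-length form, against 11.7% to 29.9% and 31.3% to 53.7% in the other 8 libraries. CFA6D 4 is also 1 of the libraries with pituitary RNA and the one with the lowest satellite glia sum (580 FPKM over 8 genes, against 792 to 1008), and their part in this was not tested.

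Between CFA6D and saline the called receptor transcript was P2rx7-204, again 1 of 44 against 2.57% of all transcripts. It stood at 0.00142, 0.413 and 0.345 FPKM in saline, at 0.414, 0.469 and 0.534 in CFA3D, and at 1.65, 0.498 and 0.648 in CFA6D, so the CFA6D libraries were all above saline. The log2 difference was 1.69 (SE 0.64, limma unadjusted p = 0.0274, adjusted p = 0.680). Saline 1 and CFA6D 4 decided it. Without saline 1 the difference was 0.95, without CFA6D 4 it was 1.23, and neither passed.

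Across all 44 receptor transcripts tested, the number called stayed near the share of the whole table, and the other counts lay to either side of it. At an unadjusted p under 0.05 there were 2 of 44 on CFA3D (P2rx7-205 and P2ry2-201, against 4.68% of all transcripts), 1 on CFA6D (P2rx7-204, against 6.81%) and 3 between the days (P2rx4-203, P2rx6-203 and P2ry14-206, against 5.42%). No receptor transcript was called between the days, against 2.23%. None passed adjustment in limma in any comparison, against 0.0255%, 0.0195% and 0.015% of all transcripts. The groups did not overlap for 2, 1 and 7 of the 44, against 9.48%, 12.2% and 12%. P2ry2-201, P2rx4-203, P2rx6-203 and P2ry14-206 are named after their values were seen. P2ry14-206 stood at 0.803, 1.62 and 0.894 FPKM in CFA3D and at 0.517, 0.384 and 0.683 in CFA6D, a log2 difference of -0.91 (limma unadjusted p = 0.0291, adjusted p = 0.918).

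**Figure D3:**
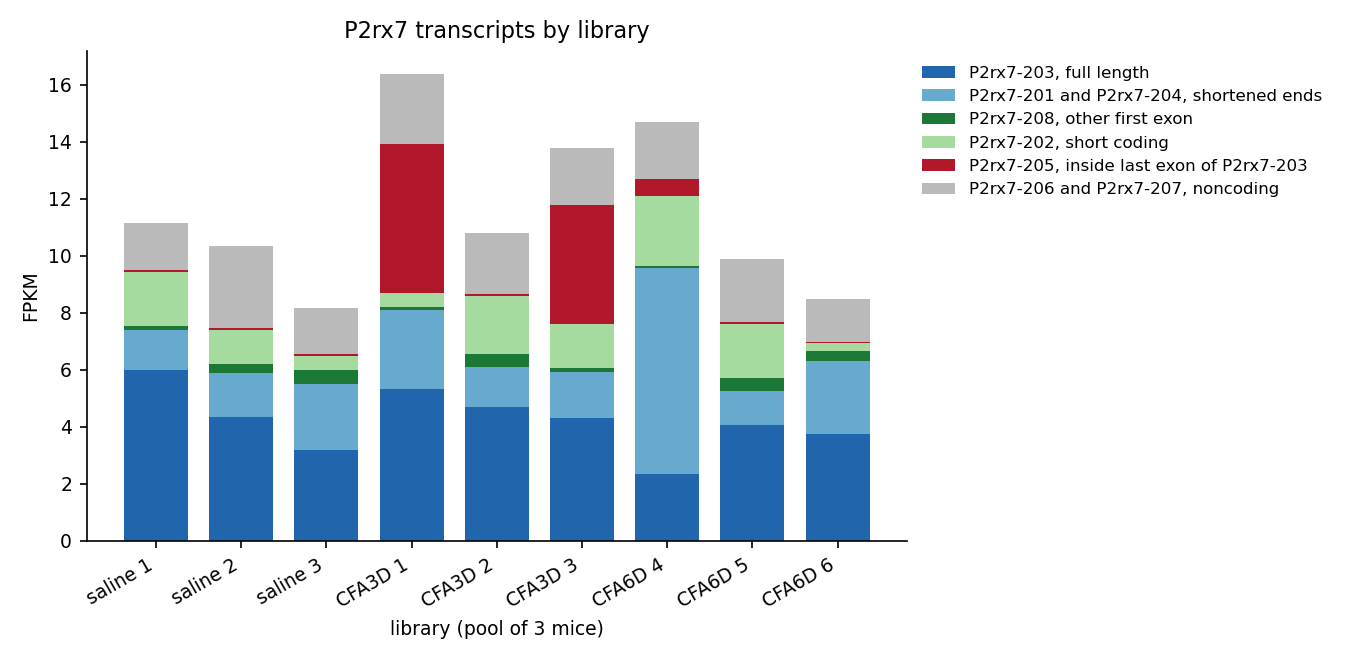
FPKM of the P2rx7 transcripts in each library, stacked so that the bar height is the gene sum. P2rx7-205 is 5.23 and 4.16 FPKM in CFA3D 1 and 3 and at most 0.594 elsewhere, and the shortened forms reach 7.23 FPKM in CFA6D 4.

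Among the P2Y receptors, P2ry1 (chromosome 3, 61002795 to 61008982, plus strand) encodes an ADP receptor that signals through Gq. It stood at 20.9, 15.4 and 12.2 FPKM in saline, at 17.4, 17.0 and 17.3 in CFA3D, and at 16.1, 19.1 and 17.3 in CFA6D. Saline held both the highest and the lowest library, and the CFA3D libraries differed by less than 1 FPKM (SD 0.184, n = 3). The differences were 0.13 on CFA3D (interval -0.24 to 0.50, limma adjusted p = 0.997) and 0.14 on CFA6D (interval -0.23 to 0.52, adjusted p = 0.786). They depended on which saline pool was left out, and without saline 1 they were 0.33 and 0.35 with unadjusted p of 0.0209 and 0.0168 in limma, while without saline 3 they were -0.06 and -0.04. The single-exon transcript P2ry1-203 held 63.4% of the sum, and all 3 transcripts code for the same length of protein. The antisense lncRNA Gm37035 overlaps P2ry1 by 992 bases and stood between 1.57 and 2.22 FPKM.

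P2ry2 (chromosome 7, 100996568 to 101012866, minus strand) encodes a receptor for ATP and UTP. It stood at 8.84, 8.17 and 5.59 FPKM in saline, at 8.91, 8.15 and 8.58 in CFA3D, and at 9.15, 5.65 and 5.59 in CFA6D. The CFA3D libraries sat close together, while saline 3 and CFA6D 5 and 6 were the 3 lowest. The differences were 0.21 on CFA3D (interval -0.28 to 0.69, limma adjusted p = 0.997), -0.16 on CFA6D (interval -0.64 to 0.33, adjusted p = 0.823) and -0.36 between the days (interval -0.85 to 0.12, adjusted p = 0.715). With 1 library left out the CFA3D difference ran from 0.0070 (without saline 3) to 0.33, the CFA6D difference from -0.39 to -0.032 (without saline 1), and that between the days from -0.60 (without CFA6D 4, unadjusted p = 0.0099 in limma) to -0.25 (without CFA6D 6). P2ry2-203, the highest transcript with 28.6% of the sum, is 528 bases long and codes for only a short stretch. The 4 transcripts with the whole reading frame were each lower on average.

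P2ry12 (chromosome 3, 59216272 to 59262871, minus strand) encodes the Gi-coupled ADP receptor of microglia and platelets. It stood at 1.88, 1.12 and 2.53 FPKM in saline, at 1.79, 2.26 and 1.41 in CFA3D, and at 0.837, 1.14 and 2.30 in CFA6D. CFA6D 4 and 5 were low and CFA6D 6 was among the highest, so the groups overlapped. The differences were 0.03 on CFA3D (interval -0.83 to 0.88, limma adjusted p = 0.997) and -0.39 on CFA6D (interval -1.25 to 0.46, adjusted p = 0.741). With 1 library left out the latter ran from -0.10 (without CFA6D 4) to -0.78 (without CFA6D 6, unadjusted p = 0.0433 in limma). The sum of 15 macrophage and microglia genes was 135 to 167 FPKM in saline, 120.5 to 195 in CFA3D and 89.2 to 137 in CFA6D, lowest in CFA6D 4, the library with the lowest P2ry12. As a share of that sum, P2ry12 was 1.12%, 0.802% and 1.87% in saline, 1.22%, 1.16% and 1.17% in CFA3D, and 0.938%, 0.862% and 1.67% in CFA6D, with overlap, and the part of macrophage content in the level was not tested. P2ry12-204 was the highest of 5 transcripts, with 30.2% of the sum. The whole gene lies within Med12l on the opposite strand, which stood between 4.46 and 7.22 FPKM.

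P2ry14 (chromosome 3, 59113855 to 59153618, minus strand) encodes a Gi-coupled receptor for UDP-glucose. It stood at 2.98, 2.96 and 3.13 FPKM in saline, at 2.97, 3.87 and 3.44 in CFA3D, and at 2.73, 2.36 and 2.89 in CFA6D. Every CFA6D library was below every saline library and every CFA3D library, while CFA3D overlapped saline. The group means were 3.02 ± 0.0928, 3.43 ± 0.450 and 2.66 ± 0.272 FPKM (SD, n = 3 each). The differences from saline were 0.17 on CFA3D (interval -0.14 to 0.48, limma adjusted p = 0.997) and -0.18 on CFA6D (interval -0.49 to 0.13, adjusted p = 0.675). P2ry14 was the 1 receptor of 10 whose CFA6D and saline groups did not overlap, against 16.2% of all gene sums, and it lies within Med12l on the opposite strand.

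The transcripts of P2ry14 started mainly at 1 of the 4 RefSeq starts. The window of that start, chr3:59130713-59131012 on the minus strand, is shown because the transcripts that begin near it (P2ry14-201, P2ry14-202 and P2ry14-206) carry most of the level, and capitals mark the same motifs as above.
P2ry14 main start: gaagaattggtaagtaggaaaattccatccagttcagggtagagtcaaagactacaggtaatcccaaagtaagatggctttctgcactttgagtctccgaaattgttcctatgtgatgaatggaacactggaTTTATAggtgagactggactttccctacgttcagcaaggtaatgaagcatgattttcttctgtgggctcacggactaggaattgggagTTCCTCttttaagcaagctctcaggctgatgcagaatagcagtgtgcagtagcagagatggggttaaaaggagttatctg
These transcripts summed to 2.29, 2.40 and 2.24 FPKM in saline, to 2.38, 3.11 and 2.72 in CFA3D, and to 2.04, 0.883 and 2.21 in CFA6D. CFA6D was below the other groups here too, and CFA6D 5 was the lowest by far, as it was for P2ry14-202, the highest transcript (0.494 FPKM there, against 0.935 to 1.55 in the others). In CFA6D 5 the transcripts of the start at 59131118 (P2ry14-207 and P2ry14-208) instead summed to 0.687 FPKM, and to 0 in every other library. P2ry14-205, of the start at 59131328, was also highest there (0.274, against 0.0693 to 0.152). How the division of reads between these starts bears on the low value was not tested. The transcripts of the start farthest upstream (59153492) summed to between 0.317 and 0.647 FPKM. The window holds TATAAA and GAGGAA on either strand.

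Between the 2 days after CFA, none of the 10 receptors was called, against 0.77% of all gene sums. P2ry14 alone had an unadjusted p under 0.05, 1 of 10 against 7.39% of all, with a log2 difference of -0.35 (SE 0.14, interval -0.66 to -0.04, limma unadjusted p = 0.0293, adjusted p = 0.641). It fell short of the threshold without CFA3D 2 (-0.26), without CFA3D 3 (-0.35) and without CFA6D 5 (-0.27). The groups did not overlap for P2ry14 and P2rx6, 2 of 10 against 16.7% of all gene sums. The log2 difference was below 0 for 9 of the 10 receptors, with P2ry1 (0.02) the exception, while 46.1% of all gene sums were above 0. The median of the 10 was -0.23 beside -0.02 for all gene sums. Both this comparison and that of CFA3D with saline use the CFA3D libraries, where 9 of the 10 receptors had a difference above 0, beside 64.6% of all gene sums.

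**Figure D4:**
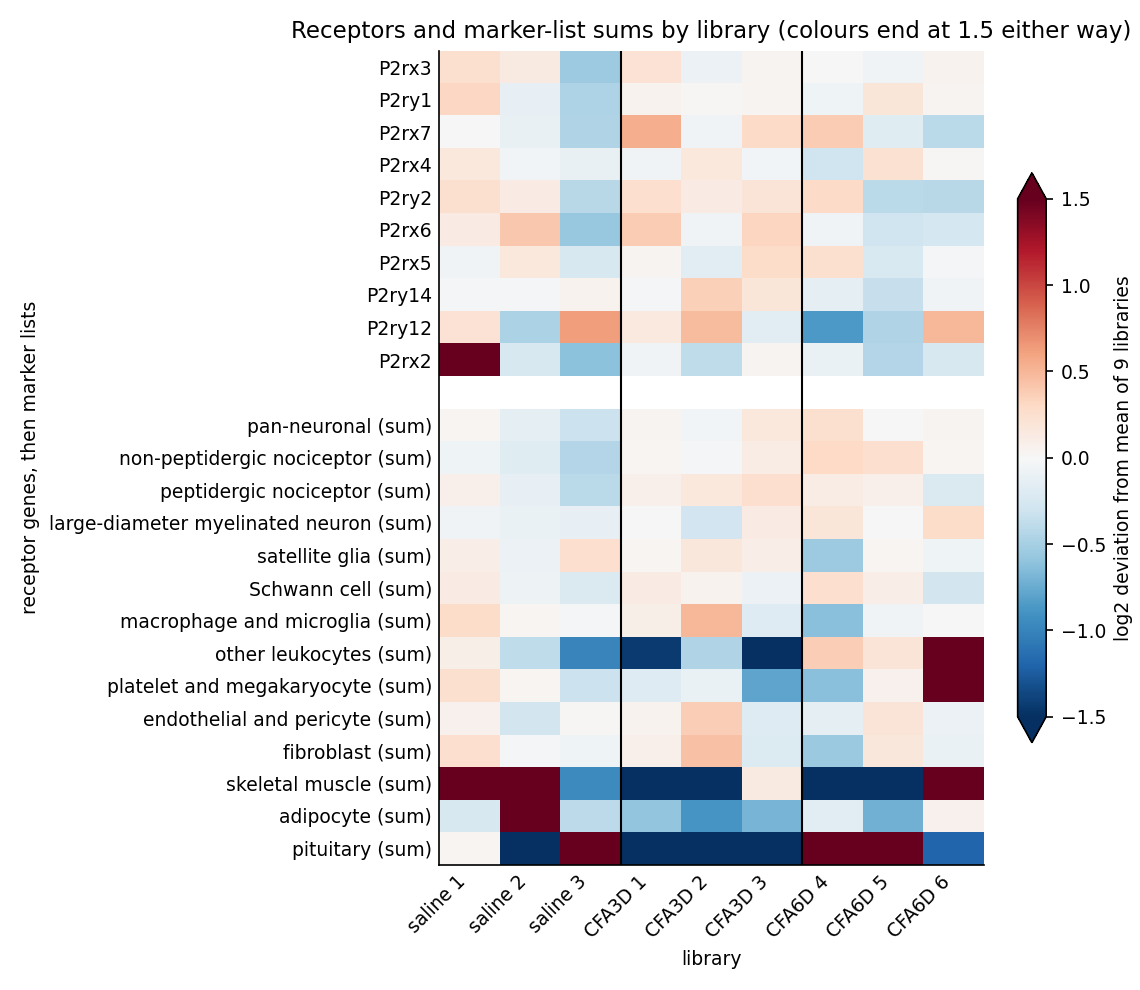
Log2 deviation of each receptor gene, and of the summed FPKM of each marker list, from its own mean over the 9 libraries, with colours that end at 1.5 either way and lines between saline, CFA3D and CFA6D. Saline 3 is the lowest library for 6 receptors and for the pan-neuronal and both nociceptor sums, while the large-diameter neuron sum is lowest in CFA3D 2, and the pituitary, muscle, adipocyte and leukocyte sums vary far more between libraries than the receptors do.

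Saline 3 held the lowest value of 6 of the 10 receptors (P2rx2, P2rx3, P2rx5, P2rx6, P2rx7 and P2ry1), and the sum of all 10 was 73.2 FPKM there against 93.3 to 113 in the other libraries. P2ry12 instead had its highest value in saline 3 (2.53 FPKM), and P2ry14 was at 3.13. With saline 3 and CFA6D 6 both left out, no receptor was called in any of the 3 comparisons.

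The rest of the purinergic system was read from 37 other genes, in lists of other P2 receptors, adenosine receptors, nucleotide release and nucleotide breakdown, of which 30 passed the filter. At an unadjusted p under 0.05 there was 1 of 30 on CFA3D and 4 on CFA6D, and 2 between the days, against 4.45%, 11.1% and 7.39% of all gene sums. Only P2rx1 was called, 1 of 30 on CFA6D and 1 of 30 between the days, against 0.584% and 0.77% of all gene sums. On CFA3D 0 of 30 were called, against 0.342%. The medians of the 30 were 0.06, 0.05 and -0.03 on the log2 scale, beside 0.05, 0.03 and -0.02 for all.

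Of the 6 other P2 receptors, P2ry4, P2ry10 and P2ry10b did not reach the filter, and P2ry6, a UDP receptor of macrophages, was the highest at a mean of 2.14 FPKM. P2rx1, the channel of platelets, neutrophils and smooth muscle, stood at 0.217, 0.214 and 0.254 FPKM in saline, at 0.138, 0.208 and 0.0669 in CFA3D, and at 0.302, 0.481 and 1.13 in CFA6D. These are low levels, as 1 read pair adds 0.0237 to 0.0327 FPKM to a 1-kb transcript. CFA3D 3 was below the 0.1 FPKM added before the log2. All CFA6D libraries were above all others, and CFA6D 6 was the highest. P2rx1 rose on CFA6D by 1.01 on the log2 scale (limma unadjusted p = 0.0365, adjusted p = 0.411) and by 1.52 from CFA3D to CFA6D (unadjusted p = 0.00485, adjusted p = 0.613). CFA6D 6 is the library with 2312 FPKM of other leukocyte markers and the highest sum of 6 platelet and megakaryocyte genes (46.9 FPKM, against 8.15 to 16.7), with Pf4 the highest of them on average. Without it the 2 differences were 0.56 and 1.07, the first no longer a call. The call on CFA6D was also lost without any 1 saline library or without CFA6D 5 (0.98 to 1.10). With coding transcripts only the 2 differences were 0.59 and 1.04 and neither passed. The part of leukocyte and platelet content in the level of P2rx1 was not tested.

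Of the 4 adenosine receptors, none had an unadjusted p under 0.05 in any comparison, and Adora1, the Gi-coupled receptor of sensory neurons, was the highest (mean 7.30 FPKM). Of the 8 nucleotide release genes, which form or load the routes by which ATP leaves cells, Panx3 and Calhm1 did not reach the filter and the connexin gene Gja1 was the highest (16.4 FPKM). Lrrc8a, the obligatory subunit of the volume-regulated anion channel, stood at 12.3, 14.7 and 11.5 FPKM in saline, at 13.9 ± 0.756 (SD, n = 3) in CFA3D, and at 16.1, 16.4 and 22.1 in CFA6D. The CFA6D libraries were above all others, with a log2 difference of 0.49 from saline (SE 0.14, limma unadjusted p = 0.00566, adjusted p = 0.229) and 0.37 from CFA3D (unadjusted p = 0.0226, adjusted p = 0.641). Panx2, a pannexin gene, stood at 7.04, 8.50 and 10.4 FPKM in saline and at 14.3, 9.23 and 13.4 in CFA6D, with a difference of 0.49 (SE 0.19, unadjusted p = 0.0266 in limma, adjusted p = 0.370) although the groups overlapped. The p of Panx2 did not hold without saline 1 (0.36), saline 2 (0.49), CFA6D 4 (0.37) or CFA6D 6 (0.42), and that of Lrrc8a between the days did not hold without CFA6D 6 (0.23) or CFA3D 3 (0.33).

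Of the 19 genes of nucleotide breakdown and adenosine handling, Entpd8 and Slc28a3 did not reach the filter and the adenosine kinase gene Adk was the highest (33.0 FPKM). Nt5e, which encodes the ecto-5'-nucleotidase CD73 that makes adenosine from AMP, stood at 5.36, 4.73 and 4.32 FPKM in saline, at 5.36, 5.61 and 5.70 in CFA3D, and at 5.54, 6.50 and 5.86 in CFA6D. CFA6D was above saline without overlap, by 0.31 on the log2 scale (SE 0.11, limma unadjusted p = 0.0208, adjusted p = 0.342). The nucleoside transporter gene Slc29a2 stood at 2.83, 2.86 and 2.61 FPKM in saline, at 3.27, 3.83 and 3.82 in CFA3D, and at 3.56, 2.95 and 3.21 in CFA6D. It was above saline on CFA3D without overlap, by 0.38 (SE 0.13, limma unadjusted p = 0.0134, adjusted p = 0.997). The p did not hold with coding transcripts only (0.19), with FPKM times length (0.19) or with the highest transcript (0.20). That of Nt5e did not hold with coding transcripts only (0.22), without saline 3 (0.24) or without CFA6D 5 (0.25). Neither reached the fold of a call.

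**Figure D5:**
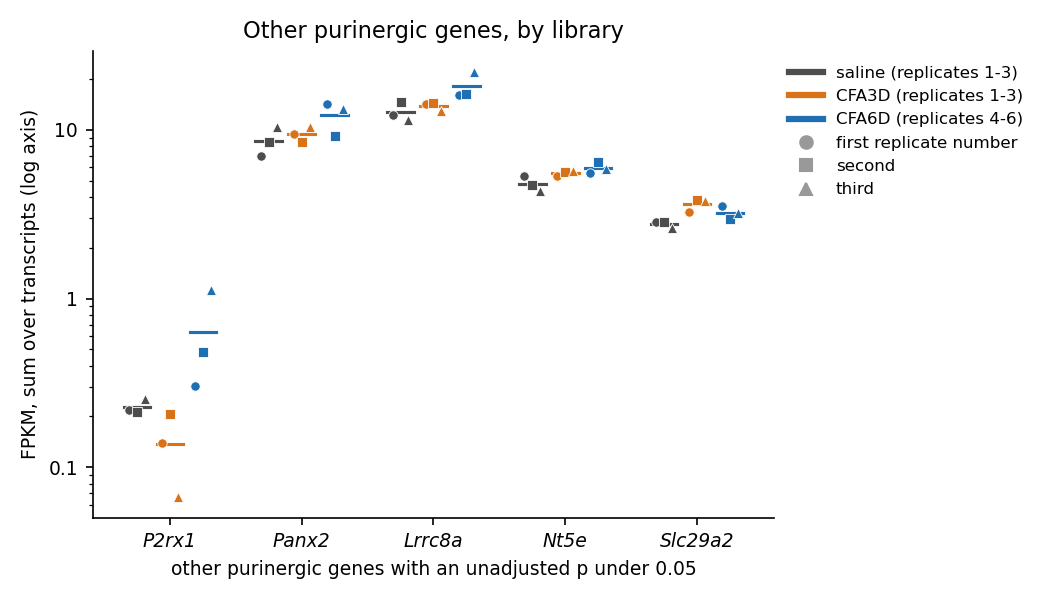
FPKM (sum over transcripts, log axis) of the 5 other purinergic genes with an unadjusted p under 0.05 in any comparison, with 1 point per library and a line at each group mean. P2rx1 runs from 0.0669 to 1.13 FPKM, highest in CFA6D 6, while the other 4 genes differ between groups by far less.

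Likeness across libraries was given by Pearson's r of log2(FPKM + 0.1) over the 9 libraries, among the 13174 gene sums that averaged 1 FPKM or more, and stands as a description. The closest genes to P2rx3 were Rnf41 (r = 0.941), Col24a1 (0.937) and Sh3glb2 (0.935). P2ry1 was closest to 1810058I24Rik (0.984), Metap1 (0.979) and Kctd6 (0.953), and P2ry12 to Plscr1 (0.980), Litaf (0.979) and Polm (0.974). P2rx7 was closest to Nars (0.927), P2rx4 to Rbm5 (0.957), P2rx5 to Arl2 (0.947), P2rx6 to Yars2 (0.950), P2ry2 to Sostdc1 (0.936) and P2ry14 to Tomm40l (0.949). With 9 libraries and so many genes, values of this size arise easily, and all pairs share the libraries, their depth and the pools that stand apart. P2rx2 was below 1 FPKM on average and was left out.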

How the data were processed

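The authors deposited FPKM values per transcript and library, in tables of mRNA and lncRNA, from total RNA of 9 libraries in 3 groups. The methods describe ribosomal RNA depletion, stranded libraries, Trimmomatic 0.32, mapping to GRCm38.72 and CLC Genomics Workbench 7.0.2. The submitters' processing notes name Bowtie 0.12.2 and mm8, and the labels name a kit that is not stranded. The program behind the FPKM values, and whether it used strand, are not given in the sources used here. All columns were used (0 were left out).

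Transcripts were matched by ID to GENCODE release 21 for mouse, which held 101539 of 102122 mRNA and 15370 of 15657 lncRNA transcripts and gave names, lengths and coordinates (GRCm38). FPKM was added per gene. The worth of 1 read pair was taken from the steps of low FPKM times length, so read pairs are approximate and intervals of counts are not given. Log2(FPKM + 0.1) of gene sums and transcripts that averaged 0.1 FPKM or more was fitted in limma 3.58.1 (R 4.3.3) with all 9 libraries, empirical Bayes moderation and a mean trend. Adjusted p-values are Benjamini-Hochberg over all features of a table. The call used the study's p cutoff (unadjusted p under 0.05) and a log2 minimum of 1 set for this work. The fit was tested on simulated data. Other steps used Python 3.11.15, numpy 2.4.6, pandas 2.3.3 and matplotlib 3.10.9. Fold changes on this scale understate those of low genes.

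The receptors and lists were chosen with earlier results of these data known. Named were all receptors, their called and highest transcripts, other purinergic genes with an unadjusted p under 0.05, the highest gene of each list described (for 3 marker lists it is not reported here), and the closest genes by r. Alternatives tried were other pseudocounts (0.01 and 1), a filter at a mean of 1 FPKM, no filter, quantile normalization, only the groups compared, no fold minimum, each library left out, saline 3 and CFA6D 6 left out, a replicate block and the highest transcript. The 2 alternatives with coding transcripts only and with FPKM times length were chosen after seeing the data. Nothing says that pools of a group came from separate cages or litters, so p-values measure the spread between these pools.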

Additional observations from a re-analysis of the deposited data

Results flagged for a closer look

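CFA6D and CFA3D differed, at an unadjusted p under 0.05 in limma, for P2ry14 and for 2 of the 30 other purinergic genes tested. Of all gene sums 7.39% had such a p between the days, so these counts are near the background. The log2 difference of CFA6D from CFA3D was -0.35 for P2ry14 (adjusted p = 0.641), 1.52 for P2rx1 (adjusted p = 0.613) and 0.37 for Lrrc8a (adjusted p = 0.641), and none of them passed the adjustment. With no saline group on day 6, this is a difference between the days in mice given CFA. All 3 CFA6D libraries lay below all 3 CFA3D libraries for P2ry14 and above them for P2rx1 and Lrrc8a. Of all gene sums 16.7% were without overlap between these groups. CFA6D 6 was the highest library for P2rx1 (1.13 FPKM) and Lrrc8a (22.1 FPKM), and without it the differences were 1.07 and 0.23. Groups of 3 libraries are too small for a test of single libraries that stand apart.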

How the results depend on the processing

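The 95% intervals of the receptors ran from 0.31 (P2ry14, P2rx4) to 1.30 (P2rx2) on the log2 scale to either side, and what depth adds to their width was not tested. Over 487 refits of the receptors' log2 differences, 435 kept their direction and 52 changed sign, and no receptor gene was called in any of them. The cause of the changes of sign was not tested. With saline replicate 3 and CFA6D replicate 6 left out, the CFA3D differences were -0.13 for P2rx3, -0.035 for P2rx4, -0.0045 for P2rx5, -0.050 for P2rx6 and -0.058 for P2ry1, and the CFA6D differences -0.22 for P2rx3, -0.052 for P2rx5 and -0.033 for P2ry1. Under quantile normalization P2rx4 was at -0.036 on CFA3D and P2rx3 at -0.027 on CFA6D. With the highest transcript in place of the gene sum, P2rx4 (-0.33) and P2ry2 (-0.060) turned on CFA3D, P2rx4 (0.15), P2rx7 (-0.39) and P2ry12 (0.43) on CFA6D, and P2rx4 (0.48) and P2ry1 (-0.046) between the days. With coding transcripts only, P2rx4 was at -0.088 on CFA3D, 0.10 on CFA6D and 0.19 between the days, and P2rx7 at 0.055 between the days. With FPKM times length, P2rx4 (-0.026) and P2ry12 (-0.055) turned on CFA3D, P2rx4 (0.020) and P2rx7 (-0.046) on CFA6D, and P2rx4 (0.046) between the days. With 1 library left out at a time, the CFA3D differences spanned -1.03 to 0.29 for P2rx2, -0.13 to 0.26 for P2rx3, -0.044 to 0.10 for P2rx4, -0.016 to 0.20 for P2rx5, -0.050 to 0.44 for P2rx6, -0.058 to 0.33 for P2ry1 and -0.27 to 0.28 for P2ry12. The CFA6D differences spanned -1.16 to 0.17 for P2rx2, -0.19 to 0.20 for P2rx3, -0.14 to 0.13 for P2rx4, -0.078 to 0.16 for P2rx5, -0.47 to 0.016 for P2rx6, -0.099 to 0.30 for P2rx7, -0.041 to 0.35 for P2ry1 and -0.049 to 1.03 for P2rx7-205. Between the days they spanned -0.13 to 0.020 for P2rx3, -0.16 to 0.11 for P2rx4, -0.17 to 0.061 for P2rx5 and -0.048 to 0.073 for P2ry1. Without the fold minimum 1 receptor gene (P2ry14) counted between the days, and 2 receptor transcripts on CFA3D. Receptor transcripts called on CFA3D were 0 with a mean of at least 1 FPKM or with saline replicate 3 and CFA6D replicate 6 left out, and 0 to 1 with 1 library left out. On CFA6D they were 0 at either other pseudocount, with a mean of at least 1 FPKM or with only the groups compared, 2 with saline replicate 3 and CFA6D replicate 6 left out, and 0 to 3 with 1 library left out. The call of P2rx1 on CFA6D failed in 12 of the refits.

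Saline and CFA3D share replicate numbers. The deviations of same-numbered libraries correlated at 0.0873, -0.0802 and 0.0300, so no likeness by number was seen. With so few libraries, some of them with RNA of other tissues, these values cannot decide whether same-numbered pools were handled together. With the replicate number as a block, 115 gene sums were called on CFA3D in place of 55, receptor genes called stayed at 0 and receptor transcripts at 1. P2rx7 kept its CFA3D difference of 0.45, with an unadjusted p of 0.0174 in limma. No paired analysis was possible for CFA6D because its numbers are not shared with the other groups. Over all gene sums the calls at a pseudocount of 1 were 9, 20 and 36 in place of 55, 94 and 124, and those above the filter of 1 FPKM were 18, 37 and 60. With the highest transcript they were 146, 201 and 203, and with 1 library left out 45 to 106, 115 to 239 and 102 to 273.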
